A study of Mus musculus with 5 samples.

Results

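The genes that encode the 3 TGF-beta ligands (Tgfb1, Tgfb2, Tgfb3), their 3 receptors (Tgfbr1, Tgfbr2, Tgfbr3) and the 4 latent TGF-beta binding proteins (Ltbp1, Ltbp2, Ltbp3, Ltbp4) were examined in single-cell RNA-seq of mouse skeletal muscle mesenchymal cells before and after bone injury. The 10 genes were chosen by name, as the whole set of these families, and all 10 were among the 31055 genes of the count matrices. Cells came from Prx1Cre;mTmG mice on a C57Bl/6 background, males or females of 10 to 14 weeks, in which Cre activity under the Prx1 limb mesenchyme enhancer switches the membrane label from tdTomato to GFP. GFP+ cells were sorted from the hindlimb muscles around the tibia, after tendons and fat had been taken off and periosteum and marrow avoided. Muscles were uninjured (d0), or were taken 3 or 5 days after a non-stabilized tibial fracture, or 3 or 5 days after polytrauma, in which the same fracture was combined with mechanical injury of the surrounding muscles.

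Each of the 5 conditions was 1 library made from 2 pooled mice, so no test between conditions was possible and every difference compares 2 libraries. After removal of barcodes outside 350 to 8000 genes, with 20% or more mitochondrial UMIs or with under 1000 UMIs, 29831 of 34439 barcodes were retained. They were 4632 cells at d0, 5589 at d3 post-fracture, 6201 at d3 post-polytrauma, 1468 at d5 post-fracture and 11941 at d5 post-polytrauma. Median depth was 3640 UMIs per cell at d0 and 15688 to 34949 in the injured libraries. The Prx1 label marks a lineage and not a cell type, and a sort on it holds several mesenchymal populations while missing mesenchymal cells without the label. EGFP UMIs were found in 97.3 to 99.2% of cells of a library, and cells with at least 2 hematopoietic markers made up 0.367 to 4.91%.

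The conditions of the d3 post-polytrauma and d5 post-fracture libraries were taken from the study's cell numbers. The deposited labels give these 2 libraries the other way round. The paper reports its chondrocyte population at d5 post-fracture. The chondrocyte marker Col2a1 had 79075 UMIs in the library used here as d5 post-fracture. It had 11 in the library that the deposited labels name d5 post-fracture. The assignment used thus matches the paper's analysis, and values with the deposited labels are given as an alternative. Values at d0, d3 post-fracture and d5 post-polytrauma do not depend on this choice. Cell barcodes fell into 2 sets. The d0 and both d3 libraries shared 36 to 67 retained barcodes with each other, both d5 libraries shared 303, and 0 to 3 were shared across the sets, so a difference between d5 and earlier days cannot be told apart from this difference in library preparation. In the d5 post-fracture library, 869 of 1468 retained barcodes (59.2%) were also in another library's list. Of the 303 barcodes retained in both d5 libraries, 296 held at least 10 times more UMIs at d5 post-fracture.

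TGF-beta ligands are secreted as latent complexes in which the ligand's own propeptide is bound to a latent TGF-beta binding protein, and this protein anchors the complex to fibrillin and fibronectin fibres of the extracellular matrix. Release of the ligand by integrins or proteases lets it bind the type II receptor Tgfbr2, which then phosphorylates the type I receptor Tgfbr1 and, through it, Smad2 and Smad3. In injured muscle, TGF-beta is known as a signal for matrix production by fibro-adipogenic progenitors (FAP) and as a driver of fibrosis.

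RefSeq promoter sequences of assembly GRCm38.p6 were found for 8 of the 10 genes and not for Tgfb3 and Tgfbr3. The 4 shown are those of Ltbp2 and Ltbp4, which differed most between uninjured and injured muscle, and of Tgfb1 and Tgfb2, ligands whose levels across the libraries had different ranges. Each is written 5′ to 3′ on the gene's strand and ends at the base before the annotated start. Capitals mark matches on either strand of 3 motifs without overlap between them. The first is a core of binding by Sp1, the GC box, with the letters GGGCGG. The second is the box named after its letters, CCAAT, which the factor NF-Y is known to bind. The third is the TATA box, with the letters TATAAA. Ltbp2 lies on the minus strand, and the stretch shown is chr12:84876533-84876741.
Ltbp2: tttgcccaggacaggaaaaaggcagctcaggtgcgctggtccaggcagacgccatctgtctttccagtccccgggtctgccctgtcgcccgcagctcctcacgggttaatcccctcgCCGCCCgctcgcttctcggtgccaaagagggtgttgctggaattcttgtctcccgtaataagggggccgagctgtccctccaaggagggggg
Ltbp4 lies on the minus strand, and the stretch shown is chr7:27337693-27337862.
Ltbp4: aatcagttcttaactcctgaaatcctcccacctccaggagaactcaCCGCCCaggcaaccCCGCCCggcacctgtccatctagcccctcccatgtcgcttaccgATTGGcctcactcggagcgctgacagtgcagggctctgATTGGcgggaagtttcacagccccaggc
Tgfb1 lies on the plus strand, and the stretch shown is chr7:25686752-25687001.
Tgfb1: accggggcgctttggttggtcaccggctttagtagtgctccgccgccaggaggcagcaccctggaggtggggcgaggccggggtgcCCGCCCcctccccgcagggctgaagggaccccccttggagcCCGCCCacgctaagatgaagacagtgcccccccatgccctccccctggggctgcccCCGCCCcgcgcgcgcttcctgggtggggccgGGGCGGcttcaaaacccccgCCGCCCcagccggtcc
Tgfb2 lies on the minus strand, and the stretch shown is chr1:186705990-186706239.
Tgfb2: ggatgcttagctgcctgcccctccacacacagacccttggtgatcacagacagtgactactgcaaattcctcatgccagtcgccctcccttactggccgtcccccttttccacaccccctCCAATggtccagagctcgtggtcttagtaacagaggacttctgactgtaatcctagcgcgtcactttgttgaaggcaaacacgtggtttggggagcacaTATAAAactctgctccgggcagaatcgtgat
The Tgfb1 stretch had a GC content of 75.2% and 5 matches of the GC box, whereas the Tgfb2 stretch had 53.6%, none of the GC box, 1 CCAAT box and 1 TATA box. The Ltbp2 stretch, of 209 bases, held 1 GC box, and the Ltbp4 stretch, of 170 bases, 2 GC boxes and 2 CCAAT boxes. Both were ended at the GENCODE gene start, and the full 250 bases before the RefSeq starts held 2 GC boxes for Ltbp2 and 3, 5 and 7 for the 3 starts of Ltbp4. Over the 250 bases before each of 32851 RefSeq starts, the GC box was found in 32.7%, the CCAAT box in 33.9% and the TATA box in 12.4%. An AP-1 motif (TGANTCA, present in 6.75%) and a Smad palindrome (GTCTAGAC, present in 0.167%) had no match in the windows of the 8 genes.

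Levels are given in CPM, the UMIs of a gene summed over the cells of a library, divided by all UMIs of those cells on the usual counts-per-million scale, with exact Poisson 95% intervals. These intervals, and the exact intervals of shares and ratios below, cover counting error only and not differences between mice. A lower level in a library can mean fewer cells of a type that carries the transcript or less transcript per cell, which summed counts cannot tell apart. The plot of the 10 levels by library shows that the range was narrow for Tgfb2 and wide for Ltbp2, Ltbp4 and Tgfb1.

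**Figure D1:**
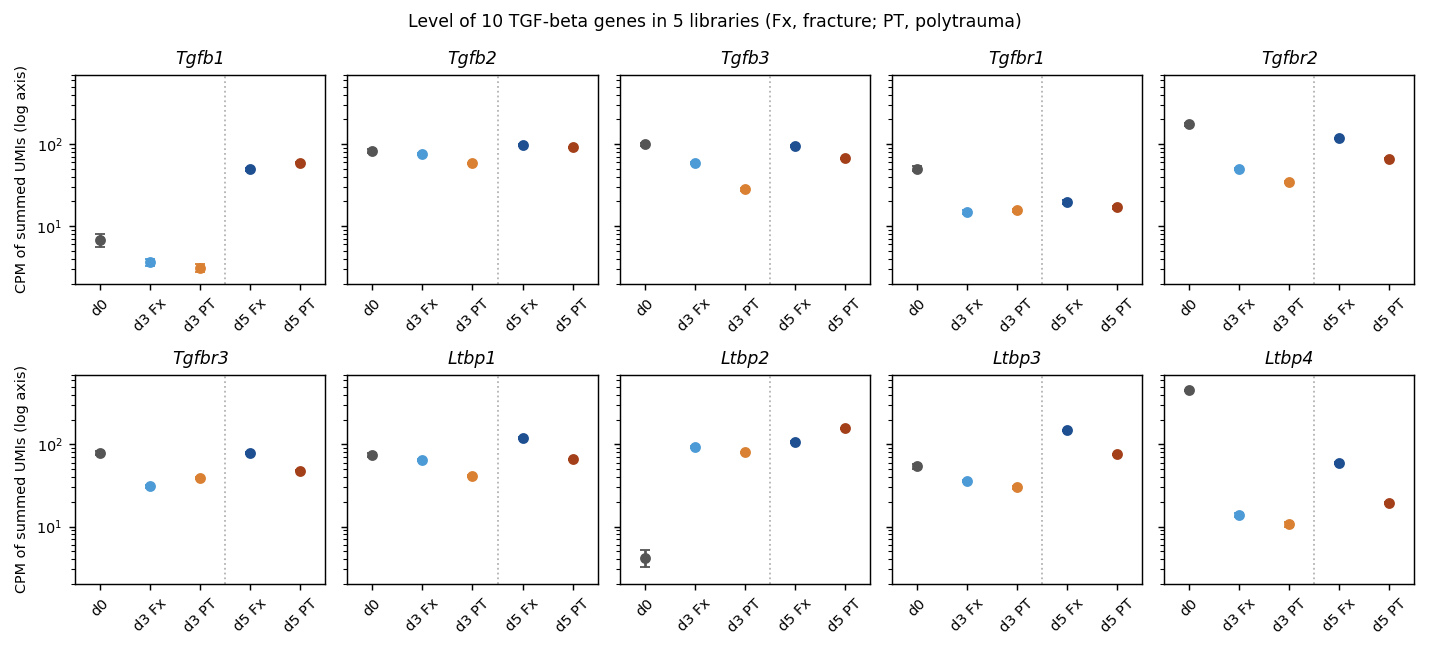
Level of each gene in the 5 libraries in CPM on a log axis (Fx, fracture; PT, polytrauma), with points for libraries, bars for exact Poisson 95% intervals and a dotted line between the d0 and d3 libraries and the d5 libraries, which used different barcode sets. Ltbp2 sits at 4.13 CPM at d0 and at 79.9 to 156 after injury, while Ltbp4 sits at 453 at d0 and at 10.6 to 59.6 after injury.

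Among the ligands, Tgfb1, the isoform most studied in fibrosis, was low at d0 and d3 and higher at d5. Its level was 6.77 CPM (5.60 to 8.10) at d0, 3.62 (3.26 to 4.02) at d3 post-fracture, 3.098 (2.77 to 3.46) at d3 post-polytrauma, 49.3 (47.4 to 51.3) at d5 post-fracture and 59.3 (58.2 to 60.3) at d5 post-polytrauma. Both d5 libraries were above the other 3, and the intervals of the d3 libraries overlapped. At d5 the level was 13.6-fold that of d3 after fracture and 19.1-fold after polytrauma, log2 ratios above those of 98.6% and 99.6% of the 12391 genes compared. As these comparisons cross the barcode sets, the day and the library preparation cannot be told apart. With the deposited labels the comparison after fracture stays within 1 barcode set, and its log2 ratio was -0.23.

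Tgfb2, the isoform that needs betaglycan for high-affinity binding, had the narrowest range. It was at 82.2 CPM at d0, 75.7 at d3 post-fracture, 58.0 at d3 post-polytrauma, 96.8 at d5 post-fracture and 90.7 at d5 post-polytrauma, a 1.67-fold difference between the highest and the lowest library. None of the 6 comparisons between libraries exceeded 2-fold for this gene.

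Tgfb3, the third isoform, was at 98.8 CPM (94.1 to 103.5) at d0, 58.1 (56.6 to 59.6) at d3 post-fracture, 28.2 (27.2 to 29.2) at d3 post-polytrauma, 94.4 (91.8 to 97.1) at d5 post-fracture and 67.0 (65.9 to 68.1) at d5 post-polytrauma. The d0 and d5 post-fracture intervals overlapped, and each polytrauma library was below the fracture library of the same day. Between the d3 libraries the log2 ratio of polytrauma to fracture was -1.04 (-1.11 to -0.98), lower than that of all but 2.34% of genes. It was -0.997 without barcodes found in more than 1 library, just inside the 2-fold limit, and -0.90 in clusters of fibro-adipogenic and mesenchymal progenitors (FAP/MP-like) alone.

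The 3 receptor genes had their highest level at d0. Tgfbr1, the type I receptor kinase, was at 49.8 CPM at d0, 14.97 at d3 post-fracture, 15.6 at d3 post-polytrauma, 19.6 at d5 post-fracture and 16.9 at d5 post-polytrauma. All 4 injured libraries were low and close together, with overlapping intervals for the d3 pair. Tgfbr2, the type II receptor that binds the ligand first, was at 173 CPM at d0, 49.3 at d3 post-fracture, 34.6 at d3 post-polytrauma, 117 at d5 post-fracture and 66.6 at d5 post-polytrauma. Its level was lower in each polytrauma library than in the fracture library of that day, with log2 ratios of -0.51 at d3 and -0.81 at d5, but with the deposited labels it was higher after polytrauma on both days (1.25 and 0.94). Tgfbr3 (betaglycan), a co-receptor that presents Tgfb2 in particular, was at 79.3 CPM at d0, 30.7 at d3 post-fracture, 38.9 at d3 post-polytrauma, 78.2 at d5 post-fracture and 48.0 at d5 post-polytrauma. The d0 and d5 post-fracture levels of Tgfbr3 had overlapping intervals, and the d3 libraries were lowest.

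The latent binding proteins had opposite patterns. Ltbp2, which binds fibrillin and elastic fibre proteins but does not form the covalent complex with the latent ligand, was low in uninjured muscle cells, at 4.13 CPM (3.23 to 5.20), or 72 UMIs. It was at 92.9 CPM (91.1 to 94.8) at d3 post-fracture, 79.9 (78.2 to 81.6) at d3 post-polytrauma, 106 (103 to 109) at d5 post-fracture and 156 (154 to 158) at d5 post-polytrauma. All 4 injured libraries were above d0 under either assignment of the disputed libraries. The ratio to d0 was 22.5-fold at d3 post-fracture and 19.4-fold at d3 post-polytrauma, with log2 ratios of 4.49 (4.16 to 4.85) and 4.27.

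Ltbp4, which carries latent Tgfb1 and takes part in elastic fibre assembly, was at 453 CPM (443 to 463) at d0, 13.7 (13.0 to 14.4) at d3 post-fracture, 10.6 (9.98 to 11.3) at d3 post-polytrauma, 59.6 (57.5 to 61.7) at d5 post-fracture and 19.4 (18.8 to 20.0) at d5 post-polytrauma. It was 33.1-fold lower than at d0 at d3 post-fracture and 42.7-fold lower at d3 post-polytrauma, with log2 ratios of -5.05 (-5.13 to -4.97) and -5.42, and 1.41% of genes had a lower ratio in the fracture comparison. At d5 it was 3.07-fold higher after fracture than after polytrauma, a direction that also turned with the deposited labels. In the 599 d5 post-fracture cells whose barcodes were in no other library it was at 49.9 CPM.

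Ltbp1, a large latent complex component that anchors latent ligand to fibronectin and fibrillin, was at 74.3 CPM at d0, 64.3 at d3 post-fracture, 41.0 at d3 post-polytrauma, 118 at d5 post-fracture and 65.5 at d5 post-polytrauma. Ltbp3, which also forms the large latent complex and is needed for normal bone growth, was at 53.7 CPM at d0, 35.6 at d3 post-fracture, 29.9 at d3 post-polytrauma, 148 at d5 post-fracture and 75.9 at d5 post-polytrauma. Both genes were highest at d5 post-fracture and lowest at d3 post-polytrauma. The log2 ratio of polytrauma to fracture at d5 was -0.85 for Ltbp1 and -0.96 for Ltbp3. With the deposited labels these directions turned, to 0.68 and 1.34.

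Counted over the 10 genes, 5 differed by more than 2-fold between d3 post-fracture and d0, against 42.9% of the 12391 genes with a mean of at least 1 CPM. Ltbp2 was higher, and Tgfbr1, Tgfbr2, Tgfbr3 and Ltbp4 were lower. Between d3 post-polytrauma and d0 the count was 7 of 10, against 42.0% of genes, with Tgfb1 and Tgfb3 joining the 4 lower genes and Ltbp2 again higher. The 2 comparisons share the d0 library, so their ratios are not independent. The share of members past 2-fold after fracture was near that of all genes, and the ratios of Ltbp2 and Ltbp4 were the largest among the 10.

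In whole libraries, fewer of the 10 genes were past 2-fold between the injuries than against d0. At d3, 1 of 10 genes (Tgfb3, lower after polytrauma) was past 2-fold, against 5.2% of genes. At d5, 1 of 10 (Ltbp4, lower after polytrauma, log2 ratio -1.62, -1.69 to -1.55) was past 2-fold, against 12.3% of genes. That count was 5 in FAP/MP-like clusters alone, 2 higher and 3 lower. It was 5, all lower, without hematopoietic-like, low-depth unnamed and chondrocyte-like clusters (an alternative chosen after seeing the data). Without barcodes found in more than 1 library it was 2. The d3 count was 2 in FAP/MP-like clusters and 0 without those barcodes. The share of all genes was not computed for these settings, so the changes in count are not a result about the members. With the deposited labels all 10 ratios of polytrauma to fracture were above 0 on both days, from 0.19 to 3.77 at d3 and from 0.12 to 4.26 at d5, with 0.70 for Tgfb3 at d3 and 0.87 for Ltbp4 at d5. Tgfbr1 and Tgfbr3 at d3, and Tgfb1 and Ltbp2 at d5, had ratios above 0 with either assignment, and the direction of the others turned. For Tgfbr1 at d3 the ratio was 0.06 (-0.04 to 0.16) with the assignment used, an interval that spans both directions. Of the other 9 genes at d5, Tgfb1 (0.27) and Ltbp2 (0.56) had a log2 ratio above 0. Between days, 5 genes were more than 2-fold higher at d5 than at d3 after fracture (Tgfb1, Tgfbr2, Tgfbr3, Ltbp3, Ltbp4), against 42.3% of genes past 2-fold in either direction, and 3 after polytrauma (Tgfb1, Tgfb3, Ltbp3), against 32.2%. Beside those members, 37.8% of all genes after fracture and 27.6% after polytrauma were more than 2-fold higher at d5 in CPM, and 15.9 and 13.3% with median-of-ratios scaling. The plot of ratios sets each gene beside the median of all genes.

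**Figure D2:**
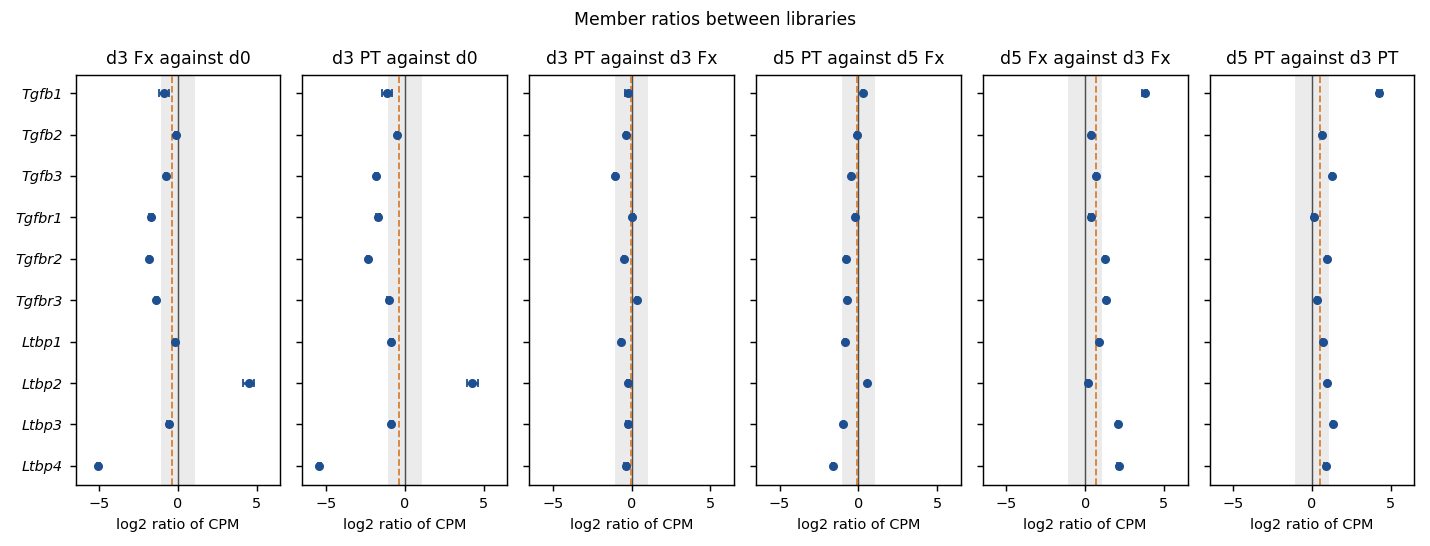
Log2 ratio of CPM of each gene in 6 comparisons, with exact 95% intervals as bars, the range within 2-fold shaded and the median of all 12391 genes as a dashed line. Ltbp2 and Ltbp4 lie far outside the shaded range on opposite sides in both comparisons of d3 with d0, and Tgfb1 lies far to the right in both comparisons of d5 with d3.

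Scaling moved the centre of these ratios. Over all genes, the median log2 ratio in CPM was -0.39 for d3 post-fracture against d0, -0.40 for d3 post-polytrauma against d0, 0.67 for d5 against d3 after fracture and 0.50 after polytrauma, and was 0.19, 0.14, -0.07 and 0.02 with median-of-ratios scaling. With that scaling Ltbp2 was 5.07 and Ltbp4 -4.47 (log2) for d3 post-fracture against d0, while Ltbp1 turned from -0.21 to 0.37. Tgfb2 turned positive as well (from -0.12 to 0.46 after fracture, and from -0.50 to 0.03 after polytrauma), so no direction is given for it against d0. Tgfbr3 (-0.79 after fracture, -0.50 after polytrauma) and, after polytrauma, Tgfb1 (-0.59) were within 2-fold of d0 with that scaling.

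Shares of cells with a UMI were compared after drawing 1000 UMIs from every cell, since depth differed. Ltbp2 was detected in 0.194% of d0 cells (exact 95% interval 0.0889 to 0.369), in 7.86% at d3 post-fracture, 6.84% at d3 post-polytrauma, 7.43% at d5 post-fracture and 13.3% at d5 post-polytrauma. Without thinning the shares were 0.972, 59.9, 53.8, 60.2 and 70.0%. Ltbp4 was detected in 33.5% of d0 cells (32.1 to 34.9), 1.91% at d3 post-fracture, 1.15% at d3 post-polytrauma, 5.86% at d5 post-fracture and 2.41% at d5 post-polytrauma, and in 61.2, 18.1, 14.1, 57.2 and 22.5% without thinning. The order of the libraries for both genes was that of the levels, except that the d3 post-fracture share of Ltbp2 was above the d5 post-fracture share.

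Tgfb1 was detected in 0.756, 0.304 and 0.242% of thinned cells at d0, d3 post-fracture and d3 post-polytrauma, and in 4.91 and 5.70% at d5 post-fracture and d5 post-polytrauma (2.14, 5.73, 4.76, 61.4 and 50.7% unthinned). Tgfb2 was within 6.03 to 8.11% of thinned cells in all 5 libraries. Tgfbr2 was detected in 14.4% at d0 and in 3.71 to 10.0% after injury.

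Hematopoietic cells, which should lack the matrix genes, gave a background. In the d3 post-polytrauma hematopoietic-like cluster (78 cells, median 3769 UMIs against 15688 in the library), Ltbp2, Ltbp3 and Ltbp4 were detected in 0 of 78 thinned cells (a floor of 3 cells would be 3.85%, and the exact upper limit is 4.62%). In summed counts the same cluster held 17 UMIs of Ltbp2 (39.3 CPM, against 79.9 in the library) and 1 of Ltbp4. It held 3 UMIs of Ltbp3, at 6.94 CPM (1.43 to 20.3), an interval that lies under the 29.9 CPM of the library. For other genes the interval held the library's level. Ltbp4 was at 2.31 CPM (0.0586 to 12.9) against 10.6 in the library, and Ltbp1 at 23.1 (11.1 to 42.55) against 41.0. Tgfb3 was at 20.8 CPM (9.52 to 39.5) against 28.2. These library levels thus could not be told from those of the cluster. In thinned cells, the d3 post-polytrauma shares of Ltbp4 and Ltbp3 (3.23%) lie under the limit of 4.62%, so these shares cannot be told from background. The same holds for Ltbp1 (3.92%), found in 2 of 78 cells of the cluster, with an upper limit of 8.96%. The d5 post-polytrauma cluster had 29 cells, 0 with Ltbp4, and an upper limit of 11.9%, above the Ltbp4 share of its library. In summed counts its Ltbp4 level was 10.5 CPM (2.2 to 30.7), an interval that held the 19.4 CPM of the library. Cells with at least 2 hematopoietic markers had shares close to their libraries for some genes, 29.4% for Ltbp4 at d0 (17 cells) and 13.9% for Ltbp2 at d5 post-polytrauma (108 cells). For others the share was lower. Ltbp2 was in 1.56% of 64 such cells at d3 post-fracture (upper limit 8.40%), against 7.86% in the library. At d3 post-polytrauma it was in 3.78% of 185 (upper limit 7.64%), against 6.84%. Tgfb1 and the receptors are known in immune cells as well, and no class that should lack them was found. The d3 post-polytrauma hematopoietic-like cluster had 46.3 CPM of Tgfbr1, above the 15.6 CPM of its library, and 9.26 CPM of Tgfb1 (4 UMIs). The d5 post-polytrauma cluster had 70.0 CPM of Tgfbr1 and 199 CPM of Tgfb1 (57 UMIs), above the 16.9 and 59.3 CPM of its library.

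A ligand was seldom found together with both Tgfbr1 and Tgfbr2 at this depth, in 0.13% of thinned cells at d0 and 0 to 0.05% after injury. With 3000 UMIs drawn it was 1.71% at d0 and 0.12 to 0.98% after injury. Each receptor gene was itself detected in few cells (4.66% for Tgfbr1 and 14.4% for Tgfbr2 at d0), which limits such shares. Of thinned cells, 15.9% at d0, 12.6% at d3 post-fracture, 9.19% at d3 post-polytrauma, 20.3% at d5 post-fracture and 19.4% at d5 post-polytrauma had a UMI of at least 1 ligand. A ligand and a latent binding protein were found together in 6.30, 2.58, 1.31, 7.49 and 5.48% of cells in the same order of libraries. Both Tgfbr1 and Tgfbr2 were found in 0.820% of cells at d0 and in 0.0968 to 0.341% after injury. With 3000 UMIs drawn, both receptors were found in 4.81% of d0 cells and 0.549 to 1.96% of injured ones, with d0 highest at both depths.

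Cells of each library were clustered without the 10 genes, and clusters were named only where markers allowed it. FAP/MP-like cells (fibro-adipogenic and mesenchymal progenitors, with Pdgfra, Ly6a and Cd34 among the markers) numbered 3057 at d0, 1204 at d3 post-fracture, 4337 at d3 post-polytrauma, 298 at d5 post-fracture and 5732 at d5 post-polytrauma. Unnamed clusters held 73.1% of d3 post-fracture cells and 43.4% of d5 post-polytrauma cells. FAP/MP-like cells were 66.0, 21.5, 69.9, 20.3 and 48.0% of cells in the order d0, d3 post-fracture, d3 post-polytrauma, d5 post-fracture and d5 post-polytrauma. These shares are for clustering resolution 0.5 and depended on it. At d3 the FAP/MP-like share was higher after polytrauma than after fracture at 0.5 and 0.3, and lower at 0.8. At d5 post-polytrauma the main dividing cluster was unnamed at 0.5 and FAP/MP-like at 0.3. No difference in FAP/MP-like share between the injuries is thus given. Pericyte-like and tenocyte-like clusters were found in all libraries, with 49 pericyte-like cells at d5 post-fracture, too few for a value. The tenocyte-like cluster at d5 post-fracture was led by Mmp13 and Egfl6, with no tenocyte marker among its top genes.

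At d0 the genes were spread unevenly over the classes. FAP/MP-like cells held 87.0% of Ltbp4 UMIs and 83.8% of Tgfbr2 UMIs. Pericyte-like cells, a mural class led at d0 by Tagln, Myh11 and Acta2, held 49.5% of Tgfb3 UMIs. They had 264 CPM of it, against 162 in tenocyte-like and 43.1 in FAP/MP-like cells. With finer clusters (resolution 0.8), 89 cells formed the pericyte-like cluster led by Fabp4 and Rgs5. Tenocyte-like cells, with the tendon genes Scx and Tnmd among the markers, were 449 of 4632 cells and held 77.8% of Ltbp2 UMIs (56 of 72), at 25.4 CPM against 1.41 in FAP/MP-like cells.

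Within FAP/MP-like cells, Ltbp2 was at 1.41 CPM at d0 (15 UMIs), 70.1 at d3 post-fracture, 81.9 at d3 post-polytrauma, 59.0 at d5 post-fracture and 161 at d5 post-polytrauma. Ltbp4 in the same cells was at 646, 36.0, 11.9, 159 and 18.5 CPM. The opposite courses of the genes against d0 were thus found inside 1 class as well as in whole libraries, and the log2 ratio of d3 post-fracture to d0 was 5.63 for Ltbp2 and -4.17 for Ltbp4 there. Tenocyte-like cells showed the same courses, with Ltbp2 at 25.4, 127, 119.7, 121 and 204 CPM and Ltbp4 at 143, 17.8, 11.4, 44.8 and 12.8 CPM. After polytrauma the Ltbp4 levels of both classes were not above those of the hematopoietic-like clusters. Their intervals were 0.0586 to 12.9 CPM at d3 and 2.2 to 30.7 at d5. In pericyte-like cells Ltbp2 was at 0.310 CPM (1 UMI) at d0 and 22.2 at d3 post-fracture. After polytrauma it was at 16.6 CPM at d3 and 40.2 at d5. The hematopoietic-like clusters used as background had 39.3 CPM (22.9 to 63.0) and 49.0 (26.8 to 82.2) in these polytrauma libraries. The pericyte-like levels there were thus not above background, and no course of Ltbp2 is given for this class. No hematopoietic-like cluster was found at d3 post-fracture. As a class, pericyte-like cells did not have the course of Ltbp4, which was at 48.6, 23.5, 40.3 and 54.0 CPM in the same order of libraries. The class held unlike clusters, however. At d0 it was led by Tagln, Myh11 and Acta2. At d3 post-fracture it joined a cluster led by Mustn1 and Myh11 (69 cells, 3.26 CPM of Ltbp4) and one led by Rgs5 and Fabp4 (50 cells, 35.8 CPM). At d3 post-polytrauma and d5 post-polytrauma it was led by Rgs5.

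Tgfb3 in pericyte-like cells was at 264 CPM at d0, 88.9 at d3 post-fracture, 73.4 at d3 post-polytrauma and 56.1 at d5 post-polytrauma, so each injured library with a value was below d0. These class values do not compare like clusters. At d3 post-fracture the cluster led by Mustn1 and Myh11 had 179 CPM, and the one led by Rgs5 and Fabp4 had 33.8. In FAP/MP-like cells it was at 43.1, 58.2, 31.2, 76.8 and 75.02 CPM, with d5 above d0. The whole-library level of Tgfb3 mixes these courses. The summed CPM of the 6 pericyte markers was also highest at d0, at 823. It was 104 and 101 at d3 post-fracture and d3 post-polytrauma, and 290 and 199 at d5 post-fracture and d5 post-polytrauma. Between the d3 libraries the sum was nearly equal while Tgfb3 was at 58.1 and 28.2 CPM. Of these markers Rgs5 was lower at d3 post-polytrauma (9.97 CPM, against 23.95 at d3 post-fracture), and the others were higher. Pericyte-like cells were 2.13% of cells at d3 post-fracture and 0.887% at d3 post-polytrauma. At d5 post-fracture the sum was well below d0 while Tgfb3 was at 94.4 and 98.8 CPM. Rgs5 (97.4 CPM) and Cspg4 (46.0) were there above d0 (59.1 and 35.5), and the other markers below. The part of pericyte-like cells in the level of Tgfb3 was not tested.

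Tgfbr2 in FAP/MP-like cells was at 237 CPM at d0, 89.7 at d3 post-fracture, 39.6 at d3 post-polytrauma, 217 at d5 post-fracture and 80.1 at d5 post-polytrauma. The log2 ratio of polytrauma to fracture was -1.18 at d3 and -1.44 at d5 for Tgfbr2, and -1.59 and -3.11 for Ltbp4, while at d5 Tgfb1 (1.13) and Ltbp2 (1.45) were higher after polytrauma. With the deposited labels the Tgfbr2 and Ltbp4 directions turned on both days. The class also holds different clusters in the libraries. At d3 post-fracture 1057 of its 1204 cells were the cluster led by Pi16 and Clec3b, and dividing clusters were unnamed. At d3 post-polytrauma it included a dividing cluster led by Top2a (1330 cells) and one led by Hspa1a and Fos (517 cells). At resolutions 0.3 and 0.8 the d3 post-polytrauma cluster with Top2a among its leading genes was unnamed. The ratios of polytrauma to fracture in this class are thus for the clusters at resolution 0.5. In the clusters with both Pi16 and Clec3b among their leading genes, which were singled out after their values were seen, Tgfbr2 was at 86.5 CPM at d3 post-fracture, 64.6 at d3 post-polytrauma, 313 at d5 post-fracture and 120.0 at d5 post-polytrauma. Ltbp4 in them was at 40.2, 13.2, 161 and 33.2 CPM, and Ltbp2 at 74.9, 62.5, 13.5 and 149. The d5 post-fracture FAP/MP-like class had 298 cells, and without shared barcodes its 126 cells had 152 CPM of Ltbp4, 155 of Tgfbr2, 23.9 of Ltbp2 and 25.5 of Tgfb1. With coarser clusters (resolution 0.3) the d5 post-fracture class had 100.4 CPM of Ltbp4 and 91.7 of Ltbp2. The chondrocyte-like class, with Col2a1 and Acan among the markers, was found at d5 with 344 cells after fracture and 211 after polytrauma, and had 62.4 and 86.3 CPM of Tgfb1 and 18.8 and 6.71 CPM of Tgfbr3. Of the 344 cells, 210 formed a cluster led by division genes (Top2a, Mki67, Birc5), with 24.9 CPM of Tgfbr3 against 7.83 in the cluster led by Hapln1 and Col2a1. The size of the class depended on the resolution. At 0.3 it had 184 cells at d5 post-fracture, and at 0.8 a dividing cluster of 116 cells there was tenocyte-like. The polytrauma cells of this class had a median of 6378 UMIs, and 101 of the 211 had a barcode that was also in another library.

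**Figure D3:**
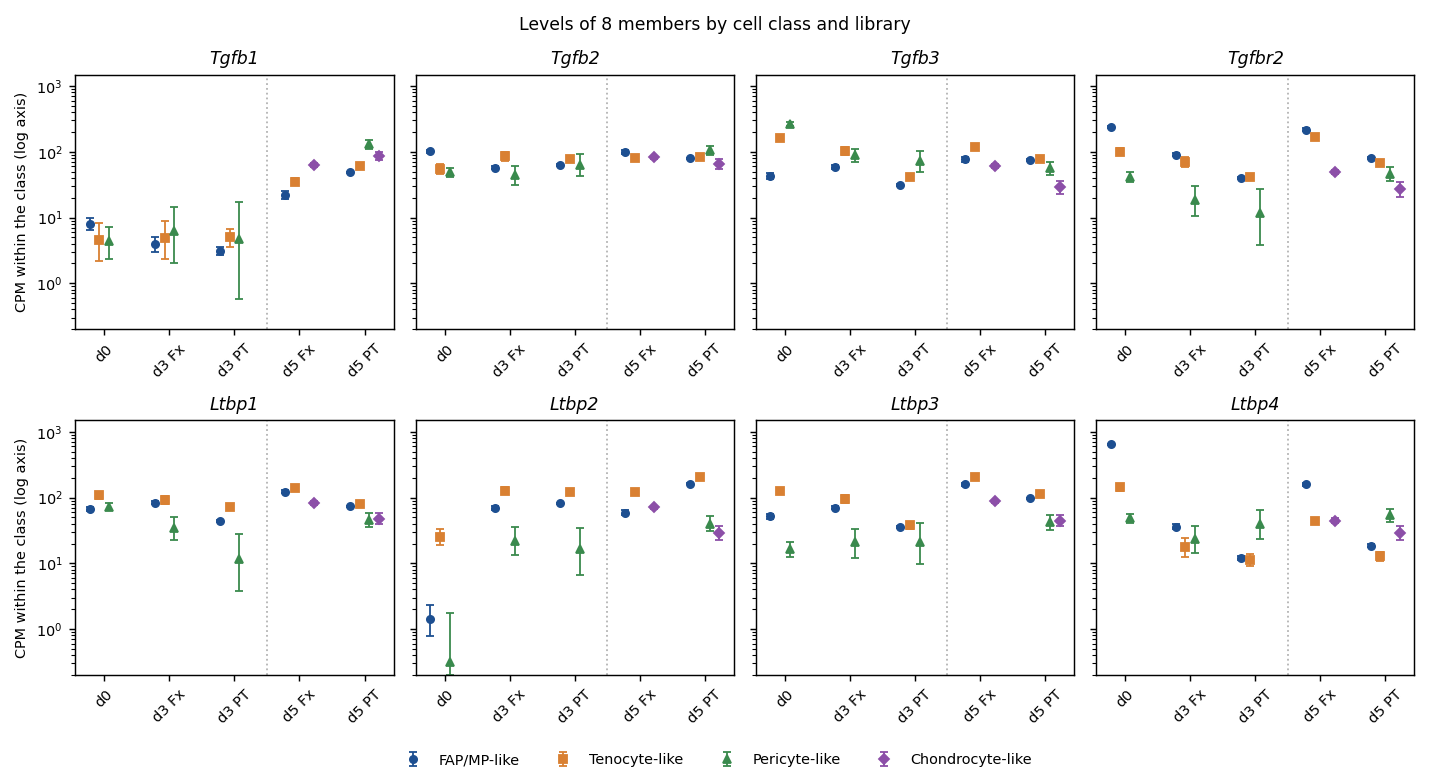
CPM of 8 genes within FAP/MP-like, tenocyte-like, pericyte-like and chondrocyte-like cells of each library, on a log axis with exact Poisson 95% intervals. In FAP/MP-like cells Ltbp4 goes from 646 CPM at d0 to 11.9 at d3 post-polytrauma, and Ltbp2 from 1.41 to 81.9.

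Single clusters differed within a class. At d0, the FAP/MP-like cluster led by Mrgprg, Daglb and Smpd3 and including Pi16, a marker of an adventitial fibroblast type, had 482 CPM of Tgfbr2, against 98.8 to 125 in the other 4 FAP/MP-like clusters. A cluster led by Inmt and Gdf10 had 17.9 CPM of Tgfb2, against 88.5 to 136 in the others, and the highest Ltbp4 level (960.2). Of the tenocyte-like clusters, the one led by Chad, Wif1, Fmod and Comp had 32.2 CPM of Ltbp2 and 144 of Ltbp1, and the one with Chodl, Col22a1, Thbs4 and Tnmd had 8.07 and 17.7. At d5 post-fracture, the cluster led by Pi16, Tnxb and Dpp4 had 313 CPM of Tgfbr2 and 13.5 of Ltbp2. The only other FAP/MP-like cluster there had 139.9 and 95.3. At d3 post-fracture the order was the other way round. The cluster led by Pi16 and Clec3b had 86.5 CPM of Tgfbr2 and 74.9 of Ltbp2, and the only other FAP/MP-like cluster had 107.7 and 42.9.

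In each d5 library the cluster with the highest Tgfb2 level was unnamed and had Enpp1, a regulator of mineralization, among its leading genes. The d5 post-fracture cluster, led by Hmga2, Spp1 and Enpp1, had 96.6 CPM of Tgfb1 and 211 of Tgfb2. The d5 post-polytrauma cluster, led by Anxa8, Inhba, Tnn, Ank and Enpp1, had 115 and 208. Pericyte-like cells at d5 post-polytrauma had 130.2 CPM of Tgfb1.

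**Figure D4:**
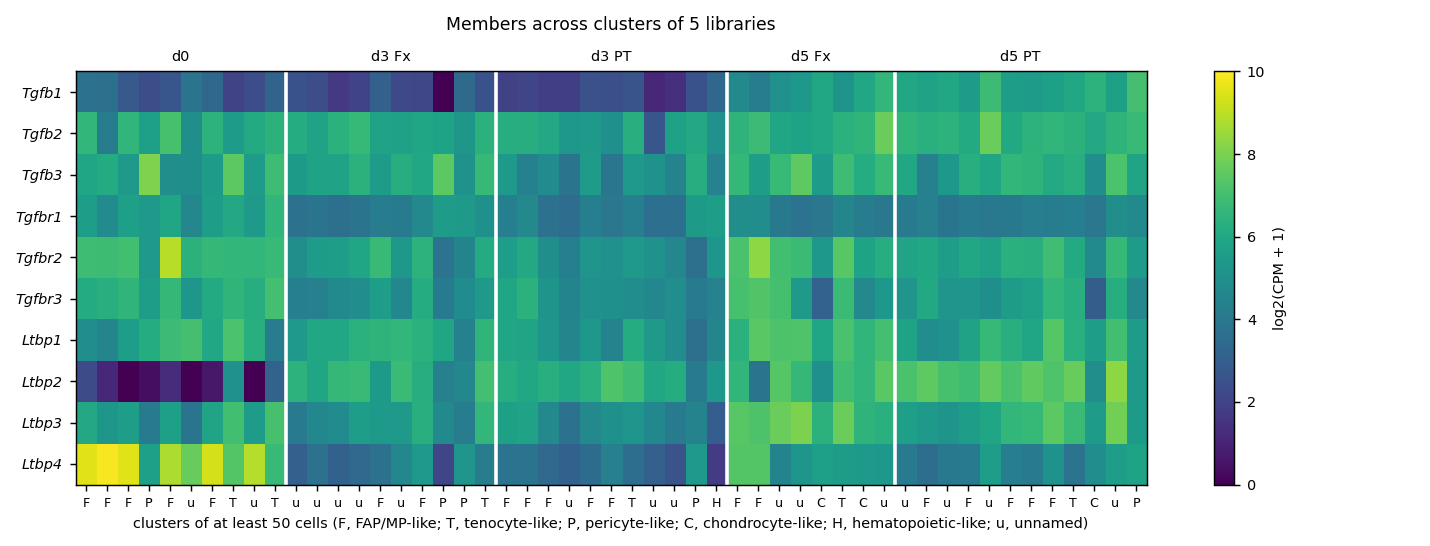
Heat map of log2(CPM + 1) of the 10 genes in clusters of at least 50 cells, by library, with the class of each cluster under its column. The Ltbp4 row is brightest in the d0 FAP/MP-like clusters (436 to 960.2 CPM), and the Ltbp2 row is dark in the same clusters (0 to 3.92 CPM).

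Genes with the most similar profile were taken as the 3 with the highest Pearson r of log2(CPM + 1) over 51 clusters of the 5 libraries, among 7459 genes. The clusters of a library share its depth and preparation, so r is a description of these clusters. For Ltbp2 they were Adam12 (0.92), Tnc (0.91) and Ddost (0.90), and for Ltbp4 Ints6 (0.89), Gsn (0.89) and Rnd3 (0.88). For Tgfbr2 they were Ahnak2 (0.87), Adam33 (0.85) and Mfap5 (0.84), and for Ltbp3 Igsf10 (0.90), Itga11 (0.88) and Csad (0.88). For Tgfb1 they were Cep350 (0.93), Klhdc2 (0.92) and Btbd1 (0.92), and for Tgfb2 the highest was Cand1 (0.73).

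A list of genes that promote, hold back or limit the release and activation of latent TGF-beta (16 tested) was counted as 1 group. In d3 post-fracture against d0, 2 of them were more than 2-fold higher and 5 lower, with a median log2 ratio of -0.67 beside -0.39 for all genes. In d3 post-polytrauma against d0 the counts were 2 and 6 (median -0.81 beside -0.40). Over all genes, 12.5% were higher and 30.3% lower in the first comparison and 12.0% and 30.0% in the second, so these counts were near those of all genes. With median-of-ratios scaling the shares of all genes were 24.0 and 18.1%, and 22.0 and 18.5%, and the counts of the list 4 and 4, and 4 and 5. Lrrc32, which holds latent TGF-beta at the cell surface, was at 95.8 CPM at d0 and at 12.0 to 19.2 in the injured libraries. Emilin1, which limits processing of the TGF-beta precursor, was at 44.3 CPM at d0 and 138 to 299 after injury, and Mmp14, a membrane protease, at 68.9 at d0 and 105 to 525 after injury. Both were thus higher in all 4 injured libraries, and Lrrc32 was lower in all 4.

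Smad proteins and their regulators (14 tested) had 1 higher and 8 lower gene at d3 post-fracture against d0 (median -1.14), and 1 and 7 at d3 post-polytrauma (median -0.99), against the same 12.5 and 30.3%, and 12.0 and 30.0%, of all genes. With median-of-ratios scaling the counts were 2 and 1, and 1 and 3, so the excess of lower genes depended on the scaling. Smad7, the inhibitory Smad, was at 66.0 CPM at d0, 29.0 and 21.3 at d3 post-fracture and d3 post-polytrauma, and 96.2 and 82.5 at d5 post-fracture and d5 post-polytrauma. Smad3, which carries the signal to the nucleus, was at 18.0, 6.30, 10.2, 21.1 and 9.60 CPM in the order d0, d3 post-fracture, d3 post-polytrauma, d5 post-fracture and d5 post-polytrauma. The gene higher in both comparisons was Fkbp1a, whose product binds the type I receptor and keeps it inactive, at 204 CPM at d0, 490.4 at d3 post-fracture and 573 at d3 post-polytrauma. The co-receptors and other type I receptors (4 tested) had 0 higher and 1 lower gene at d3 post-fracture and 0 and 0 at d3 post-polytrauma, with medians of -0.61 and -0.30.

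Genes known to be induced by TGF-beta (15 tested) went in both directions, 4 higher and 4 lower at d3 post-fracture against d0 (median 0.25) and 3 and 5 at d3 post-polytrauma (median -0.45). Of all genes, 12.5% were higher and 30.3% lower in the first comparison, and 12.0 and 30.0% in the second. With median-of-ratios scaling the counts were 6 and 3, and 4 and 5, beside 24.0 and 18.1%, and 22.0 and 18.5%, of all genes. In d3 post-polytrauma against d3 post-fracture 1 was higher and 4 were lower (median -0.66 beside -0.03), with 2.69% of all genes higher and 2.51% lower. Postn, a matrix protein of healing and fibrotic tissue, was at 220 CPM at d0, 1069 at d3 post-fracture, 391 at d3 post-polytrauma, 4039 at d5 post-fracture and 2587 at d5 post-polytrauma. Ctgf, a matricellular protein, was at 71.2, 38.2, 11.3, 171 and 129.9 CPM in the same order. Both were lower after polytrauma than after fracture at each day, and higher at each day with the deposited labels. Timp1, an inhibitor of matrix proteases, was at 102 CPM at d0, 2717 at d3 post-fracture, 1959 at d3 post-polytrauma, 695 at d5 post-fracture and 1583 at d5 post-polytrauma. At d5 the log2 ratio of polytrauma to fracture was 1.19 for Timp1, 1.34 for Acta2 and 0.94 for Tagln. With the deposited labels the direction of Timp1 turned (1583 CPM after polytrauma against 1959 after fracture). Those of Acta2 (2.28) and Tagln (3.48) did not. Acta2 and Tagln, which mural cells also express, were at 2411 and 1177 CPM at d0, and at 774 and 132 at d3 post-fracture, where the summed pericyte markers were lower too. At d5 the summed pericyte markers were lower after polytrauma (199 CPM, against 290 after fracture), while both genes were higher. The part of mural cells in these levels was not tested.

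The proteoglycans that bind TGF-beta (5 tested) had 0 higher and 3 lower genes at d3 post-fracture and 0 and 4 at d3 post-polytrauma against d0, with medians of -2.21 and -2.53 beside -0.39 and -0.40. Of all genes, 12.5% were higher and 30.3% lower at d3 post-fracture, and 12.0 and 30.0% at d3 post-polytrauma. With median-of-ratios scaling 1 proteoglycan gene was higher and 3 lower, and 1 and 4, beside 24.0 and 18.1%, and 22.0 and 18.5%, of all genes. Fmod, abundant in tendon, was at 1260.0 CPM at d0, 110.1 at d3 post-fracture, 32.5 at d3 post-polytrauma, 347 at d5 post-fracture and 83.9 at d5 post-polytrauma. The summed tenocyte markers also had their highest value at d0 (1136 CPM against 204 to 612 after injury). At d5 this sum was 560 CPM after fracture and 612 after polytrauma. Of its genes, Thbs4 (381 CPM after fracture, 486 after polytrauma) and Kera were higher after polytrauma. Tnmd (122.5 and 77.3 CPM), Scx and Mkx were lower. Tenocyte-like cells were 17.0% of cells at d5 post-fracture and 5.71% at d5 post-polytrauma. The part of tenocyte-like cells in the level of Fmod was not tested. Between the d5 libraries 3 of the 5 proteoglycan genes were lower after polytrauma (median -1.25 beside -0.07, with 10.4% of all genes lower and 1.93% higher), and 2 of 15 TGF-beta-induced genes were higher and 1 lower (median -0.39). Between d5 and d3 after fracture, 7 of 15 induced genes, 8 of 14 Smad genes and 4 of 5 proteoglycans were higher, with medians of 0.89, 1.21 and 1.65 beside 0.67 for all genes, of which 37.8% were higher. After polytrauma these counts were 10, 7 and 2, with medians of 1.40, 1.10 and 0.56 beside 0.50, and 27.6% of all genes were higher. With median-of-ratios scaling 15.9 and 13.3% of all genes were higher and 19.6 and 9.90% lower at d5, and the counts of higher genes were 4, 3 and 2 after fracture and 7, 4 and 1 after polytrauma. With the deposited labels the libraries compared are exchanged, so that the counts of d5 against d3 become those of polytrauma against fracture, and the reverse.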

How the data were processed

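The authors aligned the reads to mm10 with Cell Ranger (the sources differ on its version) and deposited filtered matrices of UMI counts per gene and cell from Chromium 3' libraries, and their notes also name Seurat 3.1.2. UMIs collapse PCR copies, and 3' counts carry no length term.

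From these deposited counts, cells with 350 to 8000 genes, under 20% mitochondrial UMIs and at least 1000 UMIs were kept. UMIs were summed per library and given as CPM. Ratios have exact conditional binomial 95% intervals, and 2-fold was the limit for a call. With 1 library per condition no test was run. Genes with a mean of at least 1 CPM over the 5 libraries were compared. For shares, 1000 UMIs were drawn from each cell, with Clopper-Pearson intervals. Each library was clustered on its own (scanpy 1.11.5, 2000 variable genes without the members, the pathway genes and the markers, 20 principal components, Leiden resolution 0.5), and clusters were named from fixed markers, with at least 3 detected. Scrublet's automatic call marked 0 to 4 cells per library and had not worked, so doublets were kept, and left out as an alternative by the highest scores (17 to 1141 cells).

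All 10 members are named. Other genes are the up to 4 with the largest ratio per pathway list and comparison, and the 3 most alike per member. Members and lists were chosen with earlier results of these data known. Sequences came from RefSeq, GRCm38.p6. Alternatives covered the labels of 2 libraries, scaling, cell weighting, UMI minimums, shared barcodes, doublets, hematopoietic cells, cell class, the 2-fold limit and cluster resolution. Scripts were tested on simulated data. Python 3.11.15, numpy 2.4.6, scipy 1.17.1 and pandas 2.3.3 were used.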

Additional observations from a re-analysis of the deposited data

How the results depend on the processing

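Among 60 log2 ratios (10 genes, 6 comparisons), 22 were past 2-fold, and these kept their sign under every alternative except the deposited labels of 2 libraries, where 13 of 22 did, and 24 of all 60. With those labels the counts past 2-fold were 5 for d3 post-polytrauma against d3 post-fracture, beside 42.3% of all genes for the same 2 libraries. They were 3 for d5 post-polytrauma against d5 post-fracture, beside 32.2%. For d5 against d3 the count was 1 after fracture, beside 5.2%, and 1 after polytrauma, beside 12.3%. Ratios that turned were those of Tgfb1 for d3 post-polytrauma against d0 (2.87), Tgfb3 for d3 post-polytrauma against d3 post-fracture (0.70) and Ltbp4 for d5 post-polytrauma against d5 post-fracture (0.87). The d5 to d3 ratios after fracture turned for Tgfb1 (-0.23), Tgfbr2 (-0.51), Ltbp3 (-0.25) and Ltbp4 (-0.37), and after polytrauma for Tgfb3 (-0.50) and Ltbp3 (-0.96), because this setting exchanges the libraries compared.

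With a 1.5-fold limit the counts were 8 for d3 post-fracture against d0, 2 for d3 post-polytrauma against d3 post-fracture, 5 for the d5 pair and 8 for d5 against d3 after polytrauma. Without barcodes found in more than 1 library they were 0 for the d3 pair and 2 for the d5 pair, and in FAP/MP-like clusters alone 2 and 5. Without hematopoietic-like, low-depth unnamed and chondrocyte-like clusters, an alternative chosen after seeing the data, the d5 pair had 5. Median-of-ratios scaling gave 3 for d5 against d3 after fracture and 1 after polytrauma, all higher, beside 15.9 and 13.3% of all genes higher. For the other settings of this paragraph the share of all genes was not computed, so their counts are not a result about the members. The causes of these shifts were not tested.

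At clustering resolution 0.3, 69 of 170 class levels moved past their interval (23 by more than 1.5 times), and 54 at 0.8 (12 by more than 1.5 times). The clusters named FAP/MP-like also changed with the resolution. Counts and ratios in FAP/MP-like clusters alone are for resolution 0.5. All 50 thinned shares were larger with 3000 UMIs drawn. No paired analysis was possible because each condition has 1 library. With 1 library of 2 pooled mice per condition, differences between mice were not measured, and shares near the detection limit depend on depth.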

Other observations

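Some clusters without a class name stood apart in these genes. A d3 post-polytrauma cluster of 188 cells with Cd74 and H2-Ab1, genes of antigen presentation, among its leading genes had 5.47 CPM of Tgfb2, against 58.0 in the library. A d5 post-polytrauma cluster of 699 cells with mitochondrial genes among its leading genes and a median of 4279 UMIs had 313 CPM of Ltbp2 and 231 of Ltbp3, against 156 and 75.9 in the library.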
